A study of Mus musculus with 4 samples.

Results

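The genes described here are 10 extracellular antagonists and intracellular transducers of canonical Wnt signalling: Sfrp1, Sfrp2, Dkk1, Lrp5, Lrp6, Axin1, Axin2, Apc, Ctnnb1 and Tcf7l1. They were chosen by name, with earlier results of these data known. Counts of called members beside the share of all genes are therefore a description and no test of the group. A site belonged to a gene when its position and strand fell inside the span that the deposited lists give for that gene. Listed sites were found in 9 of the 10 genes, and Ctnnb1 was not analysed here. Together the 9 genes held 1199 of the 881997 distinct sites in the 4 lists.

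The study measured N6-methyladenosine (m6A), the methyl mark that the METTL3 enzyme writes on adenosines of messenger RNA, in mouse retinal organoids at day 4 of differentiation. Organoids of this kind are aggregates of pluripotent stem cells grown in culture towards eye tissue. The method was GLORI, in which glyoxal and nitrite convert unmodified adenosine so that it is read as G, while m6A is still read as A. The 2 wild-type (WT) libraries came from the Rx:GFP reporter line, and the 2 knockout (KO) libraries from a Mettl3 KO line carrying an HA-tagged METTL3 that doxycycline can induce. The labels give no treatment for any library and mention no doxycycline, so both KO libraries are described as uninduced only as far as the labels go. One cell line stood for each genotype, and no label says whether replicates were separate cultures, so the p-values measure the spread between these libraries, which may be technical. The organoids were sequenced whole, and fewer cells of a type cannot be told apart from less RNA per cell.

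In canonical Wnt signalling, a secreted Wnt protein bridges a Frizzled receptor and the co-receptor Lrp5 or Lrp6. Without a Wnt signal, a complex built on Axin and Apc marks β-catenin, the product of Ctnnb1, for destruction. With a signal, β-catenin accumulates and binds Tcf/Lef factors on target genes, among them Axin2, whose product feeds back to dampen the pathway. Early anterior neural tissue, from which the eye field arises, is known to need low Wnt activity, and secreted antagonists and the repressive factor Tcf7l1 are part of that protection.

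Across the 4 libraries the lists held 227298 and 288516 sites in the WT and 230299 and 215850 in the KO, with a median coverage of 38 to 41 reads per site. The member genes had 270 and 389 of these in the WT and 366 and 297 in the KO. Recurrence between libraries was low, since 1091 of the 1199 member sites (91.0%) stood in 1 list, 97 in 2, 7 in 3 and 4 in all 4, against 91.9% in 1 list over all sites. Mettl3 itself, the check of the labels, had a deposited gene coverage, relative to the median gene, of 1.01 and 0.801 in the WT and 1.16 and 1.04 in the KO, a log2 difference of 0.29 ± 0.18 (SE; limma, adjusted p = 0.349). The lists do not show which part of the gene was deleted, and the coverage of the whole gene does not check the knockout. Retinal and neural markers were present in the WT, and some of them were lower in the KO. Rax, a defining eye-field gene, had 20 and 35 listed sites in the WT and 0 in either KO library. Summed coverage of the 6 markers that could be tested was 37.5 and 40.3 library medians in the WT and 15.8 and 14.2 in the KO, a sum carried mostly by Six3 and Sox2. Six3, Lhx2 and Sox2 passed the test as lower, while Pax6, Sox1 and Nes did not pass it, with log2 differences of 0.12, -0.16 and -0.16 (limma, adjusted p = 0.729, 0.630 and 0.662). Six6 had no listed site in any library. A list of 5 neural crest and dorsal markers held 3 and 5 sites in the WT and 69 and 44 in the KO. Most of these were in Pax3 (0 and 0 against 36 and 12), Wnt1 (1 and 1 against 16 and 13) and Msx1 (1 and 0 against 10 and 12). Sox10 had 0 and 2 sites against 1 and 3. Foxd3 had 1 and 2 against 6 and 4, and its coverage was not called (-0.09; limma, adjusted p = 0.790). The 5 pluripotency markers held 32 and 34 listed sites in the WT and 14 in each KO library, and of the 2 with coverage in all libraries Pou5f1 was lower (-0.68; limma, adjusted p = 0.0463) and Nanog missed the threshold (-0.70, adjusted p = 0.0512). The 6 mesendoderm and 3 mesoderm markers together held at most 4 sites in any library, and the blood and endothelial markers held none. Every member result below was measured in libraries that differed in these markers, and the part of cell type in the results was not tested.

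The coverage of the member genes split in 3 ways. Axin2 was higher in the KO, Sfrp1 and Tcf7l1 were lower, and the remaining 5 genes with a value in all 4 libraries did not pass the test. Coverage here is the value the authors deposited per gene, divided by the library's median gene. Whether the authors scaled it for length is not given in the sources used here, so each test compared it between libraries only. Values of different genes may not be comparable, and the summed marker coverage above mixes genes and is only a description. Each gene was tested with limma on log2 coverage against all 8285 genes with a value in every library, at a Benjamini-Hochberg adjusted p under 0.05. At this threshold 5.77% of all genes were called, 2.66% as higher in the KO and 3.11% as lower, and 3 of the 8 testable members were called, 1 higher and 2 lower. Both KO libraries lay above both WT libraries for 4 of the 8, Sfrp2, Axin1, Axin2 and Lrp5, and for 24.7% of all genes, and below them for 2, Sfrp1 and Tcf7l1, and for 29.5% of all genes. Each of the 3 calls was lost on leaving out at least 1 library: Axin2 and Tcf7l1 were left without WT replicate 2, Axin2 alone without KO replicate 1, and 0 without KO replicate 2, where all genes together gave 20 calls in place of 478. Without the centring on the median gene, the median of all genes moved from -0.02 to -0.13 on the log2 scale and the split of all calls from 220 higher and 258 lower to 101 and 300, while the same 3 members were called.

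**Figure D1:**
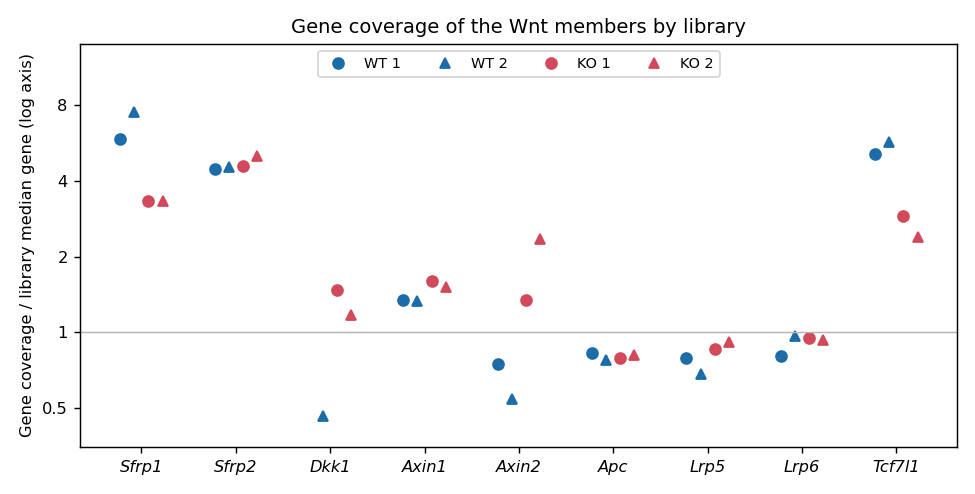
Deposited gene coverage of 9 member genes in each library, divided by the library's median gene (log axis; circles are replicate 1 and triangles replicate 2). Sfrp1 and Tcf7l1 lie lower in both KO libraries than in both WT libraries, Axin2 lies higher, and Dkk1 has no value in WT replicate 1.

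Sfrp1 encodes a secreted Frizzled-related protein that binds Wnt ligands outside the cell. Its gene lay at chr8:23901518-23939648 on the plus strand in the coordinates of the lists, which are printed as deposited because their genome build could not be settled. Coverage was 5.84 and 7.48 times the median gene in the WT and 3.33 in each KO library. Both KO values lay below both WT values, a log2 difference of -0.99 ± 0.18 (limma, adjusted p = 0.010), or 1.98-fold lower. The difference kept its direction without any 1 library, from -1.17 to -0.81, but missed the threshold without WT replicate 2 (adjusted p = 0.0663), KO replicate 1 (0.0833) or KO replicate 2 (0.0923).

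Sfrp1 also held the members' largest set of reproducible WT sites. The level of a site is the fraction of its reads that stayed A. Of its 149 listed sites, 18 were listed in both WT libraries at a coverage of at least 20, and 15 of these 18 stood in neither KO list. The highest was chr8:23936516, 3132 bases before the gene's end, with levels of 0.959 (117 of 122 reads, Wilson 95% interval 0.908 to 0.982) and 0.977 (126 of 129 reads, 0.934 to 0.992). The best covered site of high level was chr8:23939441, 207 bases before the end, at 0.732 from 988 reads and 0.738 from 1322 reads. Its intervals were 0.703 to 0.758 and 0.713 to 0.760, so the WT libraries agreed within counting error. The third named site, chr8:23936891, had levels of 0.348 and 0.443.

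None of these 3 sites appeared in a KO list. A site may be missing from a list because too few of its reads stayed unconverted or because too few reads covered it. No list held a site under 15 reads, 5 unconverted reads or a level of 0.1, so an absent site may still be partly unconverted. To judge the coverage, the reads expected in the KO were estimated from each WT library. The estimate was the site's coverage times the ratio of the gene's coverage in the KO to that in the WT, and the lower of both estimates was kept. At chr8:23939441 the expectation was 548.5 and 475.2 reads, and KO replicate 1 had another listed site 50 bases away with 211 reads, while KO replicate 2 had none within 150 bases. At chr8:23936516 it was 53.5 and 46.4 reads, and KO replicate 2 had a listed site 29 bases away with 96 reads. At chr8:23936891 it was only 27.9 and 24.1 reads. A site chosen after its values were seen, chr8:23937694, had the deepest coverage of all shared member sites, with levels of 0.219 from 1782 reads and 0.326 from 3531 reads and an expectation of 1079 and 935 reads. There the nearest listed KO sites, 94 and 32 bases away, had 67 and 194 reads, far under the expectation.

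Other Sfrp1 sites persisted in the KO. The site chr8:23938574, 1074 bases before the end, was in all 4 lists with levels of 0.127 and 0.230 in the WT and 0.258 and 0.201 in the KO, at 291, 482, 132 and 149 reads. These values overlapped between genotypes, with a log2 odds difference of 0.43 ± 0.42 (edgeR's quasi-likelihood test, adjusted p = 0.901). Near the start of the gene, chr8:23901991 stood at 0.307 and 0.282 in the WT and 0.208 in KO replicate 1. The third recurring site, chr8:23938052, stood at 0.192 and 0.112 in the WT and 0.179 in KO replicate 1. The number of listed sites, 46 and 51 in the WT and 37 and 49 in the KO, overlapped between genotypes (log2 difference 0.02 ± 0.28; edgeR, adjusted p = 0.989). Sfrp1 therefore had a similar number of listed sites in both genotypes while its WT sites of high level were absent from the KO lists.

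**Figure D2:**
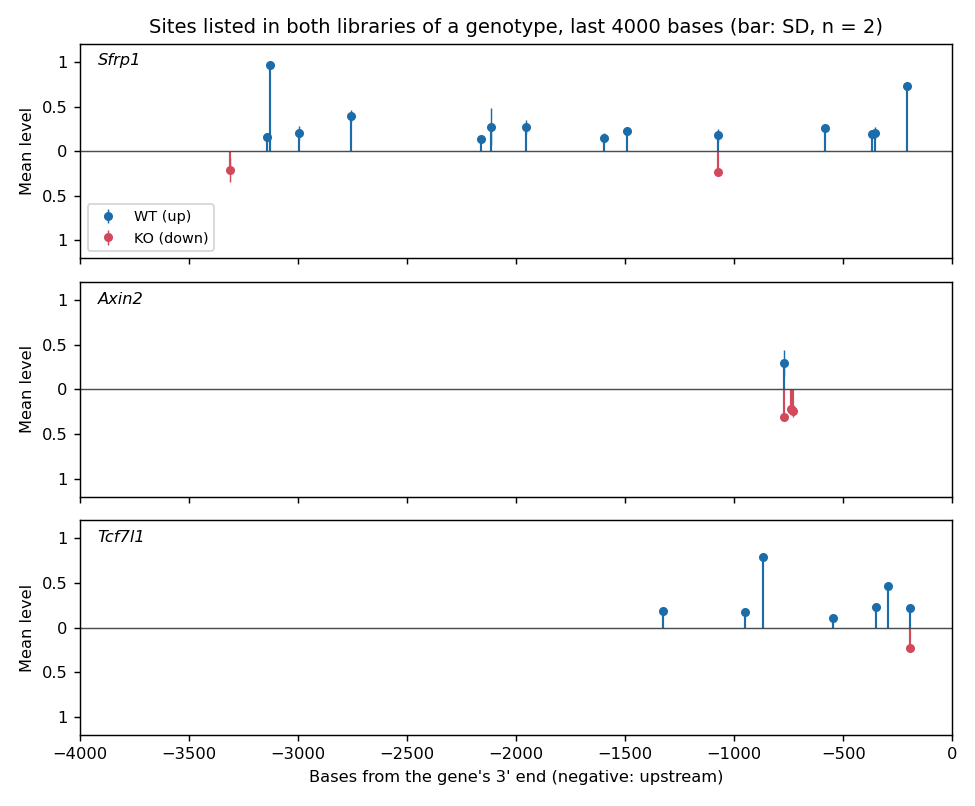
Sites listed in both libraries of a genotype, drawn by distance from the gene's 3' end over the last 4000 bases of Sfrp1, Axin2 and Tcf7l1. WT mean levels point up and KO mean levels point down (fraction of reads unconverted, bar SD, n = 2). The tall WT sites of Sfrp1 at 3132 and 207 bases and of Tcf7l1 at 869 and 294 bases have no KO counterpart, whereas 1 site of each gene is drawn on both sides.

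Sfrp2, the second Frizzled-related protein of the group, lay at chr3:83673628-83681623 on the plus strand. Its coverage was 4.45 and 4.52 times the median gene in the WT and 4.56 and 5.02 in the KO. Both KO values were the higher, by a log2 difference of only 0.09 ± 0.16 (limma, adjusted p = 0.776), and whether Sfrp1 and Sfrp2 differed in their change was not tested. Listed sites numbered 15 and 23 in the WT and 18 and 26 in the KO, overlapping values with a log2 difference of 0.41 ± 0.41 (edgeR, adjusted p = 0.737).

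One Sfrp2 site gave the most precise comparison of levels among the members. The site chr3:83680841, 782 bases before the end, had levels of 0.176 and 0.182 in the WT and 0.188 and 0.155 in the KO, at 683, 982, 1019 and 909 reads. The KO values spanned the WT values, and the log2 odds difference was -0.08 ± 0.20 (edgeR, adjusted p = 0.989). A second site, chr3:83680949, had levels of 0.203 and 0.197 in the WT and stood in neither KO list, with 57.3 and 54.8 reads expected there. In the other direction, chr3:83681552 had levels of 0.227 and 0.212 in the KO alone, at 22 and 33 reads. The lists thus held low-level sites of Sfrp2 in both genotypes, and no site of Sfrp2 shared by the WT libraries exceeded a mean level of 0.20.

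Dkk1, the secreted antagonist that binds Lrp5 and Lrp6, was almost absent from the WT lists. Its gene at chr19:30523263-30527065 on the minus strand held 0 and 2 listed sites in the WT and 11 in each KO library, and all 24 sites stood in 1 list each. Across the 10416 genes with at least 10 listed sites in all, edgeR's quasi-likelihood test called 2.59% for the number of listed sites, 1.13% as higher in the KO and 1.46% as lower. Of the 9 members, 2 were called as higher, Dkk1 and Axin2, and 0 as lower (0 with DESeq2 as well, and 1, Tcf7l1, at an unadjusted p under 0.05). Both KO libraries exceeded both WT libraries for 3 of 9 members, Dkk1, Axin1 and Axin2, and for 11.4% of all genes tested. Both fell below for 1 member, Tcf7l1, and for 26.5% of genes. Dkk1 had a log2 difference of 3.50 ± 0.92 (adjusted p = 0.0119). Scaled to the listed sites of the libraries, 22 KO sites against 2 WT sites gave a ratio of 12.6, with an exact 95% interval of 3.10 to 110.5 for counting alone.

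The Dkk1 call rests on few sites. The gene passed the minimum of 10 listed sites only through the KO libraries, the group where it is high. Its adjusted p, its interval and its place among the 2 called members are therefore a description. The log2 difference was 2.73 without WT replicate 1 and 6.48 without WT replicate 2, and the call was lost in both (adjusted p = 0.318 and 0.0962). It was also lost with DESeq2 (0.487), and with sites restricted to a coverage of at least 30 (0.299) or a level of at least 0.2 (0.224), while all of these kept its direction. Gene coverage was 0.466 times the median gene in WT replicate 2 and 1.48 and 1.17 times in the KO, and WT replicate 1 gave no value, so the coverage could not be tested. A gene with more reads has more positions past the list's minimum coverage, and the part of coverage in this count was not tested. No Dkk1 site recurred between libraries, so the lists give no site whose level could be compared.

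**Figure D3:**
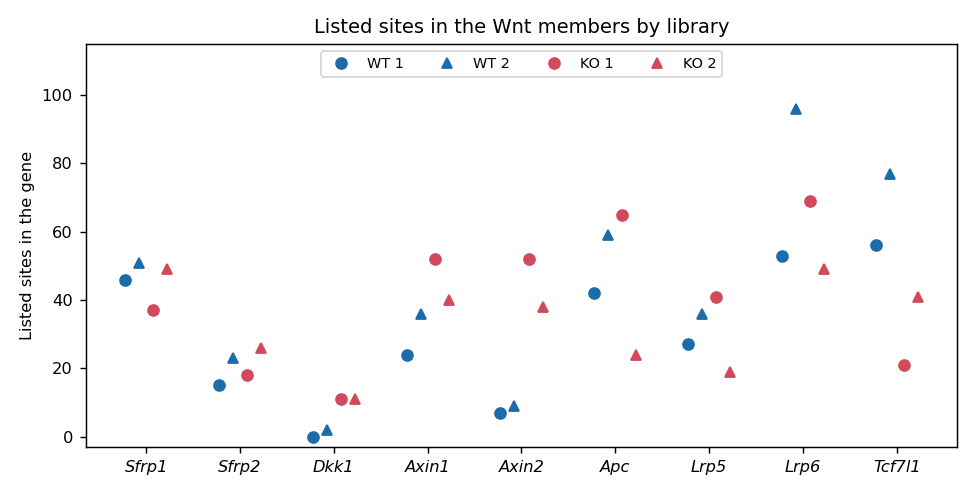
Number of listed sites inside each member gene per library (circles are replicate 1 and triangles replicate 2). Dkk1, Axin1 and Axin2 have more listed sites in both KO libraries than in both WT libraries, and Tcf7l1 has fewer in both. Sites with a coverage value shared across a chromosome are included, and without them the Tcf7l1 counts overlap.

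The co-receptors Lrp5 and Lrp6, single-pass membrane proteins, changed in neither coverage nor number of listed sites past the threshold. Lrp5 at chr19:3634828-3736564 on the minus strand had coverages of 0.787 and 0.683 in the WT and 0.855 and 0.910 in the KO, a log2 difference of 0.27 ± 0.17 (limma, adjusted p = 0.368) with both KO values the higher. Lrp6 at chr6:134423439-134543928 on the minus strand had 0.802 and 0.964 in the WT and 0.95 and 0.928 in the KO, which overlapped (0.10 ± 0.17, adjusted p = 0.782). The number of listed sites overlapped for both genes, at 27 and 36 against 41 and 19 for Lrp5 and at 53 and 96 against 69 and 49 for Lrp6 (edgeR, adjusted p = 0.928 and 0.881).

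All 4 of the Lrp5 sites and both of the Lrp6 sites shared by the WT libraries at a coverage of at least 20 were absent from the KO lists. The pair nearest the end of Lrp5 had the highest levels. The site chr19:3635040, 212 bases before the end, had levels of 0.464 and 0.50 at 69 and 80 reads, with 79.6 and 73.5 reads expected in the KO. Listed KO sites lay 59 bases away with 122 reads in replicate 1 and 4 bases away with 86 reads in replicate 2, so reads covered this neighbourhood in both KO libraries. The site chr19:3635172, 344 bases before the end, had 0.50 and 0.573, and listed KO sites 6 bases away had 137 and 53 reads. Inside the gene, 25372 bases before the end, chr19:3660200 had 0.414 and 0.327.

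In Lrp6 the shared sites lay further from the end. The site chr6:134427058, 3619 bases before it, had levels of 0.391 and 0.294, with KO sites 12 bases away in both libraries at 59 and 54 reads. The site chr6:134431777 had 0.196 and 0.154, with KO sites 4 and 3 bases away at 85 and 58 reads. One site, chr6:134426023, was listed in both KO libraries and no WT library, at the unequal levels of 0.167 and 0.583 from 30 and 24 reads. None of the Lrp5 or Lrp6 sites was in all 4 lists, so their levels could not be tested between genotypes.

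Of the destruction complex genes, Axin2 rose in coverage and in listed sites, while Axin1 and Apc passed neither test. Axin2 is both a scaffold of the complex and a widely used transcriptional read-out of β-catenin activity, and it lay at chr11:108811175-108841609 on the plus strand. Its coverage was 0.747 and 0.543 times the median gene in the WT and 1.34 and 2.36 times in the KO. Both KO values lay above both WT values, although they differed from each other, and the log2 difference was 1.48 ± 0.25 (limma, adjusted p = 0.00890), or 2.79-fold. Without KO replicate 2 it was 1.07 and missed the threshold (adjusted p = 0.0941), and without any other library it passed.

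The number of listed Axin2 sites rose from 7 and 9 in the WT to 52 and 38 in the KO, a log2 difference of 2.66 ± 0.41 (edgeR, adjusted p = 5.68e-08). The direction was kept under each of the 12 alternatives run, with DESeq2 giving an adjusted p of 0.00179. With no minimum number of sites the call was kept (edgeR, adjusted p = 2.13e-07). Without WT replicate 1, without WT replicate 2 or at a coverage of at least 30, the WT sites alone fell short of that minimum. The gene then entered only through the KO libraries, the group where it is high. Those results are a description, with log2 differences of 2.65, 2.68 and 3.9. The WT sites were thinly covered, with median coverages of 25 and 22 reads and median levels of 0.765 and 0.944, against medians of 39 and 78.5 reads and 0.231 and 0.195 in the KO. Restricted to sites at a level of at least 0.2, the log2 difference was 2.15 and still called (edgeR, adjusted p = 0.0166), and sites at a level of at least 0.3 and a coverage of at least 50 numbered 1 and 0 in the WT and 2 and 6 in the KO. The gene's coverage was also higher, and the part of coverage in this count was not tested.

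The single Axin2 site in all 4 lists showed no called difference. At chr11:108840837, 772 bases before the end, the levels were 0.400 and 0.190 in the WT from 25 and 58 reads and 0.294 and 0.321 in the KO from 429 and 321 reads. The KO values fell between the WT values (log2 odds difference 0.32 ± 0.46; edgeR, adjusted p = 0.954). Beside it, chr11:108840875 and chr11:108840880 were listed in the KO alone, at 0.226 in each library for the first and at 0.291 and 0.191 for the second. The coverage of the site was 429 and 321 reads in the KO, where the lower of both estimates from the WT was 47.7 and 72.7. By these lower estimates the local coverage differed more than that of the gene. They rest on the 25 reads of WT replicate 1, and the estimates from the 58 reads of WT replicate 2 were higher, so the size of the excess is uncertain.

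Axin1, the constitutive scaffold of the complex, lay at chr17:26357662-26414785 on the plus strand. Its coverage was 1.34 and 1.33 in the WT and 1.60 and 1.52 in the KO, with both KO values higher by a log2 difference of 0.22 ± 0.16 (limma, adjusted p = 0.451). Listed sites numbered 24 and 36 against 52 and 40, groups that did not overlap but missed the threshold (0.81 ± 0.31; edgeR, adjusted p = 0.140).

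Axin1 held 5 of the 7 member sites found in exactly 3 lists. The one of highest level, chr17:26414031, lay 754 bases before the end. Its levels were 0.723 (68 of 94 reads, Wilson 95% interval 0.626 to 0.804) and 0.775 (186 of 240 reads, 0.718 to 0.823) in the WT. In KO replicate 2 the level was 0.208 (11 of 53 reads, 0.120 to 0.335), below both WT intervals. KO replicate 1 did not list it, although 118.5 reads were expected and a listed site 6 bases away had 191 reads.

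This site could enter the test only with KO replicate 1 left out. Its log2 odds difference was then -3.53 ± 0.54 (edgeR), with the lone KO library assumed to vary like the others. The other Axin1 sites in 3 lists were of lower or less stable level. The site chr17:26357864 near the gene's start had 0.145 and 0.289 in the WT and 0.127 in KO replicate 2. The site chr17:26361704 had 0.237 and 0.627 in the WT and 0.172 in KO replicate 1. The sites chr17:26407160 (0.216 and 0.214 against 0.171) and chr17:26412955 (0.209 in WT replicate 1 against 0.143 and 0.220) lay within a narrow range. Each of these other sites was fitted in the same way, without a library that lacked it. Their log2 odds differences ran from -1.78 ± 1.16 at chr17:26361704 to -0.25 ± 0.69 at chr17:26412955.

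Agreement between WT libraries was poor at chr17:26414002, listed at 0.921 from 38 reads and 0.137 from 95 reads, with intervals of 0.792 to 0.973 and 0.0818 to 0.220 that did not meet. The difference between these replicates was larger than counting error, and no KO library listed the site. In the other direction, chr17:26406691 was listed at 0.50 and 0.393 in the KO alone, from 34 and 28 reads. Of the 7 Axin1 sites shared by the WT libraries at a coverage of at least 20, 3 stood in neither KO list.

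Apc, the large scaffold that holds β-catenin in the complex, had the smallest difference in coverage among the 8 testable members. Its gene at chr18:34353977-34455605 on the plus strand had 0.826 and 0.773 in the WT and 0.791 and 0.813 in the KO, a log2 difference of 0.01 ± 0.16 (limma, adjusted p = 0.990). Listed sites numbered 42 and 59 against 65 and 24, and the KO libraries enclosed the WT libraries (0.01 ± 0.27; edgeR, adjusted p = 0.999). The difference was -0.82 without KO replicate 1 and 0.51 without KO replicate 2, and neither was called.

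The shared WT sites of Apc formed a pair 36 bases apart. The site chr18:34450515 had levels of 0.315 and 0.198 at 178 and 263 reads, and chr18:34450551 had 0.115 and 0.227 at 227 and 317 reads. Neither was listed in the KO, where 181 and 161.5 reads were expected at the first and 230.8 and 206 at the second. KO replicate 1 had listed sites 37 and 7 bases away with 143 and 91 reads, but the nearest listed sites of KO replicate 2 had only 19 reads. A KO-only site, chr18:34361155, had levels of 0.424 and 0.957, whose intervals of 0.328 to 0.526 and 0.855 to 0.988 did not meet.

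Tcf7l1, also known as Tcf3, represses Wnt target genes until β-catenin displaces or inactivates it. Its gene lay at chr6:72603361-72766237 on the minus strand. Coverage was 5.13 and 5.73 times the median gene in the WT and 2.90 and 2.40 times in the KO. Both KO values lay below both WT values, with a log2 difference of -1.04 ± 0.17 (limma, adjusted p = 0.00848), or 2.06-fold lower. The call was lost without KO replicate 1 (adjusted p = 0.0536) or KO replicate 2 (0.0832), at log2 differences of -1.17 and -0.90.

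Listed Tcf7l1 sites fell short of a call in the same direction, at 56 and 77 in the WT and 21 and 41 in the KO, with a log2 difference of -0.89 ± 0.28 (edgeR, adjusted p = 0.0530). It passed with the authors' adjusted p restricted to at most 0.001 (-0.98, adjusted p = 0.0331) and without KO replicate 2 (-1.51, adjusted p = 0.00229). Many listed Tcf7l1 sites carried a coverage value shared across the whole chromosome, the kind left out of gene coverage as background. Sites with a value of the gene itself numbered 29 and 27 in the WT and 12 and 31 in the KO. These counts overlapped between genotypes, so the lower number of listed sites depended on the sites with a shared value. Of the 8 sites shared by the WT libraries, 7 stood in neither KO list and 7 lay within 3000 bases of the gene's end.

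The best covered of these, chr6:72603655, lay 294 bases before the end with levels of 0.467 from 1485 reads and 0.455 from 2001 reads. Its Wilson intervals, 0.442 to 0.493 and 0.433 to 0.477, overlapped. In the KO 890.8 and 640.6 reads were expected, and the nearest listed KO sites, 101 and 79 bases away, had 416 and 398 reads. The highest site, chr6:72604230, had 0.811 and 0.764 from 53 and 55 reads, but only 25.9 and 18.6 reads were expected in the KO, so its absence there says little. The site chr6:72603711 had 0.220 and 0.241 from 431 and 763 reads, with 258.5 and 185.9 expected.

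By contrast, chr6:72603554, 101 bases from the best covered site and 193 before the end, stood in all 4 lists. Its levels were 0.212 and 0.227 in the WT and 0.192 and 0.256 in the KO, at 1185, 1029, 416 and 336 reads. The KO values enclosed the WT values, and the log2 odds difference was 0.02 ± 0.24 (edgeR, adjusted p = 1). Neighbouring positions of the same transcript end thus differed in whether the KO lists held them.

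Over all member sites, 44 were listed in both WT libraries at a coverage of at least 20, and 34 of them (77.3%, Wilson 95% interval 63.0 to 87.2%) stood in neither KO list. The same share over all such sites of the series was 81.3% of 26264, inside the members' interval. With an expected KO coverage of at least 50 in both libraries, it was 18 of 24 member sites (75.0%) against 81.0% of all. At a mean WT level of at least 0.3 it was 11 of 13 (84.6%) against 83.9%. The members' share was thus near the background. Of the 34 absent sites, 27 had another listed site within 150 bases in both KO libraries, and 26 of the 44 shared sites (59.1%) lay within 3000 bases of a gene's end.

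Sites were also counted in the reverse direction. Of the 20 member sites listed in both KO libraries at that coverage, 15 (75.0%, interval 53.1 to 88.8%) stood in neither WT list, against 68% of 10708 sites over the series. With an expected WT coverage of at least 50 it was 3 of 8 member sites (37.5%, interval 13.7 to 69.4%) against 66.4% of 4027. Sites of 1 gene share their reads and transcripts, so these intervals cover counting error only.

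**Figure D4:**
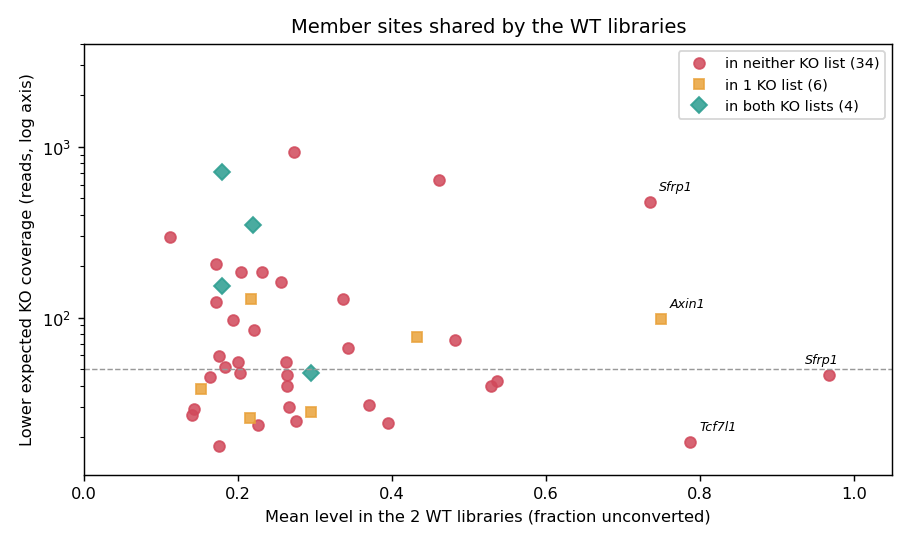
The 44 member sites listed in both WT libraries at a coverage of at least 20, by mean WT level and by the lower of the 2 expected KO coverages (reads, log axis; the dashed line is 50 reads). In total 34 sites were in neither KO list, 6 in 1 and 4 in both, and the 4 in both have WT levels under 0.3.

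The 4 sites in all 4 lists, 1 each in Sfrp1, Sfrp2, Axin2 and Tcf7l1, were the only member sites that could be tested in every library. Among 1557 such sites of the series edgeR called 2.63%, all lower in the KO, and 0 of the 4 member sites. None had an unadjusted p under 0.05 by edgeR, and 0 were called by limma (adjusted p of 0.878 or more) or when reads were summed per genotype for Fisher's exact test (0.564 or more). Summed per gene the same 4 sites again gave 0 calls, against 5.85% of 821 genes, 5.36% called lower and 0.487% higher. A site must keep a level of at least 0.1 in the KO to be tested, so this test leaves out every site that was lost.

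Member sites at a level of at least 0.3 and a coverage of at least 50 numbered 15 and 25 in the WT and 12 and 16 in the KO. These counts overlapped, with a KO to WT ratio of 0.70 (two-sided exact permutation test, p = 0.667, where 0.33 is the smallest value the design allows). Over all sites there were 13243 and 19263 against 6974 and 7599, a ratio of 0.448 (exact permutation p = 0.33). Sfrp1 gave 6 and 5 of the members' WT sites and 2 and 1 of their KO sites. The members' ratio was 0.385 at a coverage of at least 100, 0.368 at a level of at least 0.5 and 1.06 at a level of at least 0.2.

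The conversion rate that the authors gave per gene, the percentage of adenosines read as G over the gene, was higher in both KO libraries for 3 of 8 members, where 50% of all genes did so. Sfrp1 went from 95.9% and 96.2% in the WT to 97.2% and 97.0% in the KO. Axin1 went from 93.5% and 95.1% to 96.8% and 96.1%, and Tcf7l1 from 95.0% and 95.4% to 96.9% and 95.7%. None of the 8 was lower in both KO libraries, where 3.71% of genes were. For the other 5 members the libraries overlapped, as in Sfrp2 with 96.8% and 97.0% against 97.6% and 97.0%.

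Beyond the members, 97 further genes of the pathway were listed by role, and 50 had coverage in all 4 libraries. Of these 50, 4 were called as higher in the KO, 4 as lower and 42 as neither, where 2.66% and 3.11% of all 8285 genes were called. Their median log2 difference was -0.05, against -0.02 over all genes and 0.09 over the 8 members. The higher genes were Wnt1, a ligand of the dorsal midline and midbrain-hindbrain boundary (2.16 ± 0.21, adjusted p = 0.000248), the receptor Ror2 (1.15 ± 0.17, 0.00389), the membrane antagonist Apcdd1 (1.46 ± 0.23, 0.00628) and Wls, the carrier that brings Wnt proteins to the cell surface (0.97 ± 0.17, 0.010). The lower genes were Fzd5, the Frizzled receptor of the early eye field (-2.03 ± 0.19, 0.000193), Id2, a helix-loop-helix inhibitor (-1.03 ± 0.17, 0.00875), the effector Tcf7l2 (-0.79 ± 0.17, 0.0213) and the co-repressor Tle4 (-0.74 ± 0.18, 0.0352). All p-values here are limma's, adjusted over all 8285 genes.

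Wnt1 and Fzd5 alone among these 8 were called without each library in turn. With KO replicate 1 left out, 3 of the 8 were called, and with KO replicate 2 left out, 2 were. Without WT replicate 1 the call of Tcf7l2 was lost (adjusted p = 0.115) and without WT replicate 2 that of Tle4 (0.258), which also missed the threshold when genes with several coverage values were kept (0.0511). Wnt1 is itself one of the dorsal markers above, with 1 listed site in each WT library and 16 and 13 in the KO.

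By listed sites, 59 of the other pathway genes could be tested, and edgeR called 8 as higher in the KO and 5 as lower, where 1.13% and 1.46% of all genes tested were called. Named after their values were seen, the β-catenin target Sp5 and the receptor Fzd10 had 0 listed sites in both WT libraries and 12 and 9, and 14 and 11, in the KO. Both entered the test through their KO sites alone, so these counts are a description. Sp5 is from a list of 6 target genes, and the others of that list tested by sites, Myc, Id2 and Ccnd1, were not called. Their log2 differences were 1.30, 0.49 and -0.19 (edgeR, adjusted p = 0.213, 0.769 and 0.881). In coverage, 3 genes of that list could be tested, and limma called 0 as higher, 1, Id2, as lower and 2 as neither. Apart from Ror2, with 6 and 10 WT sites, the other genes called as higher also reached the minimum of 10 sites only through the KO libraries. The count of 8 is therefore a description as well, and the share over all genes is no test of it. The receptor Fzd4, also named after its values were seen, went the other way, from 19 and 44 sites to 2 and 3 (edgeR, adjusted p = 4.26e-06). It reached the minimum of 10 sites only through the WT libraries, the group where it is high, so its adjusted p is a description too. The coverage of Fzd4 was not called (-0.06 ± 0.23, limma adjusted p = 0.899). The 17 cytoplasmic genes with coverage, among them the kinases Gsk3a and Gsk3b and the Dishevelled proteins Dvl1, Dvl2 and Dvl3, gave 0 calls in limma's coverage test, where 5.77% of all genes were called, and 3 of them had an unadjusted p under 0.05. This count is near the background.

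**Figure D5:**
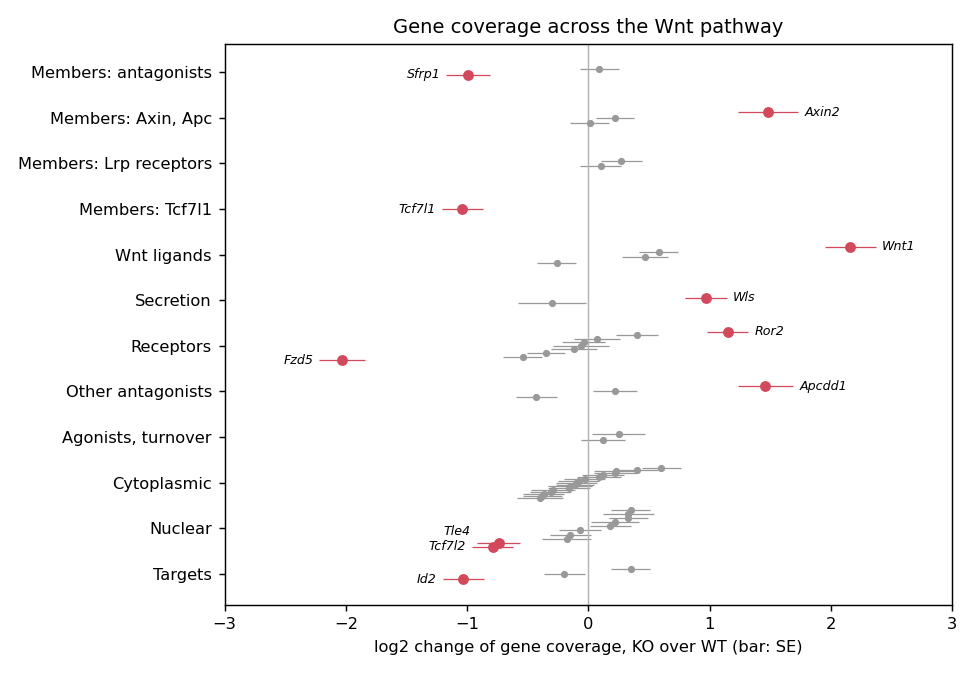
log2 difference of gene coverage between KO and WT (bar SE, limma) for the 8 testable members and 50 other Wnt pathway genes, grouped by role. Red points passed an adjusted p of 0.05 and carry names: 5 lie to the right (Axin2, Wnt1, Wls, Ror2, Apcdd1) and 6 to the left (Sfrp1, Tcf7l1, Fzd5, Tcf7l2, Tle4, Id2).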

How the data were processed

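Each library has its own deposited list of m6A sites, and replicates were not pooled. Columns per the file headers are the count of A plus G reads, the count of A reads, the unconverted fraction, a p-value, and the coverage signal and conversion fraction of the gene. The deposited fraction equalled the ratio of the 2 counts within 5e-06. Aligner and caller are not given in the sources used here. The submitters' processing notes name mm10, but only 3.32% of gene starts matched the GRCm38 table within 1000 bases, so coordinates are printed as deposited and no sequence was read by them. The feature deposited beside a site often did not contain it (in Apc 0.526% of sites carried the gene's name), so sites were placed by position and strand.

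Values shared across a whole chromosome, at 18.4% to 24.3% of sites, were taken as background and left out of gene coverage. Gene coverage was tested with limma 3.58.1 on log2 values centred on the median gene, and listed sites per gene and unconverted against converted counts with edgeR 4.0.16 in R 4.3.3, with Benjamini-Hochberg adjustment over all features. Site levels required a coverage of at least 20. Alternatives covered DESeq2 1.42.0, other minima, a replicate block and leaving out each library. Wilson and exact intervals are at 95% and cover counting error only, since PCR copies are not marked. Tested on simulated data, limma recovered 100% of genes changed by 1 or 2 on the log2 scale (2.91% of calls false). For site counts so changed edgeR recovered 20.2% and 93.7% (3.17% false), and for site levels changed by 2 and 3 it recovered 39.8% and 89.2% (0.76% false). The simulation gave all genes, and all sites, the same spread, and it changed site counts only in genes with many listed sites. The real genes differ in spread, so these rates need not hold for them, least of all for genes with few sites such as Dkk1.

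The members and lists were chosen with earlier results of these data known. Sites were named when in at least 3 lists, or, up to 3 per gene, by highest mean level among sites in both libraries of a genotype at a coverage of at least 20. Other pathway genes were named by smallest adjusted p in the coverage test, up to 5 per direction.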

Additional observations from a re-analysis of the deposited data

How the results depend on the processing

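Leaving out each library gave 0 to 3 called members for gene coverage, 1 to 3 for listed sites per gene and 0 to 1 for site level and for level pooled per gene, the 1 being Axin1 without KO replicate 1. The share of shared WT sites in neither KO list ran from 81.8% to 89.4%, the latter without WT replicate 1, where a single WT list defined the sites, and the ratio of high sites from 0.560 to 0.933. An alternative chosen after seeing the data, only sites with a gene value in both WT libraries, left the share of shared sites at 77.3%. The ratio of high sites was 0.385 at a coverage of at least 100, 1.06 at a level of at least 0.2 and 0.368 at a level of at least 0.5. Listed sites gave 1 called member, Axin2, with DESeq2, at a coverage of at least 30 and at a level of at least 0.2. At that coverage Axin2 reached the minimum number of sites only through the KO libraries, so its call there is a description. Same-numbered replicates did not deviate together (r = -0.027 over 8285 genes), so their numbers were not taken as pairs, and a replicate block kept 3 of 8 coverage calls, 2 of 9 for listed sites and 0 of 4 for levels, and moved the count over all genes for listed sites from 270 to 137 and for coverage from 478 to 488. Counts over everything tested also moved for coverage to 62 and 20 without a KO library, 225 without WT replicate 2 and 705 with the trended variance. For listed sites they moved to 42 with DESeq2, 137 at a coverage of at least 30, 51 at a level of at least 0.2 and 70 and 55 without a WT library. For site level the main count of 41 became 168 with Fisher's exact test, 69 with the likelihood ratio test, and 0 to 165 without 1 library (at 0, the count without KO replicate 2, 0 of 8 member sites had an unadjusted p under 0.05). For pooled level 48 became 31 with limma and 66 to 209 without 1 library.

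Directions turned only in values that were called neither way. Without centring, log2 coverage was -0.10 for Apc and -0.02 for Sfrp2 and Lrp6. Leave-one-out ranges of coverage that crossed 0 were -0.04 to 0.23 for Lrp6 and, for Apc, from -0.04 to 0.05. For listed sites Apc turned to -0.01 with DESeq2, -0.15 at a coverage of at least 30 and -0.08 with the replicate block, and Sfrp1 to -0.09 at that coverage, -0.12 at a level of at least 0.2 and -0.09 at the stricter adjusted p. Lrp6 turned to 0.07 at that level. Leave-one-out ranges of listed sites were -0.82 to 0.51 for Apc, -0.25 to 0.26 for Sfrp1, -0.35 to 0.17 for Lrp6 and -0.48 to 0.53 for Lrp5. Those of site and pooled level were -0.24 to 0.29 for Tcf7l1, -0.01 to 1.02 for Sfrp1, -0.60 to 0.91 for Axin2 and -0.25 to 0.09 for Sfrp2. The cause of these changes was not tested. At a coverage near 40 reads per site, sites of low level lie close to the minimum of 5 unconverted reads, and an absence from a list is no measured level.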
